A study of Homo sapiens with 23 samples.

Results

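The heat shock chaperones described here are 10 genes taken by name from a table of 58358 genes measured by RNA-seq in 13 derivatives of MCF10A, a non-transformed human mammary epithelial cell line. They are HSPA1A, HSPA1B, HSPA8, HSPH1, DNAJB1, BAG3, HSP90AA1, HSP90AB1, HSPB1 and HSPD1, and all 10 were among the 14884 genes tested, those that reached 1 on the log2(TPM+1) scale in 3 or more lines. TPM gives transcripts relative to the total of a library, corrected for transcript length. The panel held 6 lines with a structural p53 mutant (Y234C, H179R, G245S, R175H, Y163C and Y220C), 4 lines with a DNA contact mutant (R273H, R248Q, R248W and R273C) and 3 control lines (WTKD, with wild-type p53 knocked down, WTOE, with wild-type p53 overexpressed, and parental WT).

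Each mutant was a V5-tagged cDNA carried by the lentiviral vector pLenti4/V5-DEST and added to cells whose endogenous copy was left in place, whereas WTOE was made with pLX304. A mutation, its vector and the derivation of its line therefore cannot be told apart in a comparison with the control lines. Each line was measured in 1 RNA library, so the lines of a class stood in as its replicates and the spread of a class included differences between mutations. The paper describes mutant p53 protein as elevated in every mutant line but Y234C, and G245S as a mutant that keeps its fold.

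Molecular chaperones bind unfolded or misfolded proteins and help them fold, keep them soluble or pass them on for degradation. HSP70 and HSP90 proteins hydrolyse ATP in cycles steered by co-chaperones, and heat shock factor HSF1 induces many of their genes under proteotoxic stress by binding inverted repeats of the bases GAA in their promoters. Structural p53 mutants unfold more readily than contact mutants and are known to bind HSP70 and HSP90, so the question was whether chaperone RNA differed between the mutant classes.

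No chaperone passed the test in either comparison. In limma, 0 of 10 chaperones had an adjusted p under 0.05 for structural minus contact mutants, where 0% of all genes tested were called. At an unadjusted p under 0.05 the count was again 0 of 10, against 4.93% of all genes. For mutant minus control lines 0 of 10 were called as well, against 0.0202% of all genes (3 genes), and 3 of 10 had an unadjusted p under 0.05, against 4.83% of all genes. These 3 were HSPA1B, HSPA1A and HSPB1, and each had a higher mean in the mutant lines. In bulk libraries like these, fewer cells with a transcript and less of it per cell cannot be told apart. Lines of a class differed widely, and standard errors of the 10 chaperones ran from 0.41 to 0.60 on the log2 scale in the mutant minus control comparison.

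The libraries behind these values were uneven. Between 12122 and 15975 genes were above 0, and the 50 highest genes took 27.1% to 46.8% of all TPM, with the Y234C and R273H libraries at 46.8% and 37.4%. Median-of-ratios factors, which compare a typical gene between libraries, were 0.50 in Y234C and 0.68 in R273H and lay between 0.96 and 1.22 in the other lines, and dividing by these factors raised levels in Y234C and R273H. Levels are as deposited unless given as rescaled. Libraries are named by their labels. The basal keratin KRT5 was between 9.97 and 11.9 in all 13 lines. Other basal markers varied more. KRT14 ran from 0 (R273H) to 8.23 (R248Q) and KRT17 from 2.48 (R273C) to 9.50 (the library labelled WTOE). TP63 was 0 in R273H, R248W and R273C and up to 5.41 (WTKD). Luminal markers (ESR1, PGR, KRT19, GATA3 and FOXA1) summed to 19.0 to 36.6 TPM in structural lines and 36.9 to 71.1 TPM in control lines. In contact lines they summed to 1.93 to 191.1 TPM, with GATA3 at 187.5 TPM in R248Q. Summed over 4 blood markers (PTPRC, CD3E, CD68 and HBB), levels were 0 TPM in structural lines, 0 to 12.5 TPM in contact lines, all of it CD68 in R273H, and 0 TPM in control lines. Summed over 3 endothelial markers (PECAM1, VWF and CDH5), they were 0 to 6.13 TPM in structural lines and 0 TPM in contact and control lines. Summed over 5 fibroblast markers (COL1A1, COL1A2, DCN, LUM and PDGFRA), they were 3.03 to 48.0 TPM in structural lines, 2.35 to 56.6 TPM in contact lines and 2.69 to 7.91 TPM in control lines. Most of it was DCN in every line but Y234C (DCN 1.26 TPM, COL1A1 1.40 TPM), and COL1A2 was at 0 in every line. The part of these markers in the chaperone values was not tested. Depth is unknown, since the table holds no counts.

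HSPA1A (ENSG00000204389, chr6:31815543-31817946) and HSPA1B (ENSG00000204388, chr6:31827738-31830254) encode the stress-inducible HSP70, and lie 12195 bp apart, start to start, on the plus strand of GRCh38. Their sequences are shown because the largest mutant minus control differences were at these genes and because the copies are nearly the same. The 250 bases before each RefSeq start (GRCh38.p14) are printed 5′ to 3′, with capitals for the pair of inverted units that HSF1 recognises, GAANNTTC or TTCNNGAA, where N is any base.
HSPA1A, chr6:31815293-31815542, plus strand: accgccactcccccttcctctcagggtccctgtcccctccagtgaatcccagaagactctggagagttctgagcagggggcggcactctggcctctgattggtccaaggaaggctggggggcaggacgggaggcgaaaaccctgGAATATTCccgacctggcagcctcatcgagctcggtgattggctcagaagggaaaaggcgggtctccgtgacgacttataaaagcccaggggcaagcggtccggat
HSPA1B, chr6:31827488-31827737, plus strand: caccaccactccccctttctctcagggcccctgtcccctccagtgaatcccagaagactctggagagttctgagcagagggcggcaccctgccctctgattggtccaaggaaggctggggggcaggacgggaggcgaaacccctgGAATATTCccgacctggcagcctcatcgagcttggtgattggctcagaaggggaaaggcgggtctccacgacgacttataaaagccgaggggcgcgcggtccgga
Aligned end to end, 235 of 251 columns were identical (93.6%), and both windows held GAATATTC once. Of the 75-base windows of the longest annotated HSPA1A transcript, 1716 of 2326 (73.8%) also occurred in an HSPA1B transcript, and a read that lies wholly in such a stretch fits both genes. Reads were counted with STAR's gene count mode, which leaves out reads that map to more than 1 place, so the values of HSPA1A and HSPA1B rest largely on the stretches where the copies differ and are uncertain, singly and as a sum. HSPA1A and HSPA8 shared 0 of 2326 such windows, and HSP90AA1 and HSP90AB1 shared 0 of 3436, and pseudogenes of HSPA8 and the HSP90 genes were not searched.

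The same motif was searched on both strands in the 16 RefSeq promoter windows of the 10 chaperones, each running from 250 bases before to 50 bases after a start. A pair (GAANNTTC or TTCNNGAA, each of which reads the same on both strands) was present in a window of 8 of 10 chaperones and in 9 of 16 windows, against 13.5% of 35116 windows of all genes. The longer run of 3 units (GAANNTTCNNGAA or its reverse complement TTCNNGAANNTTC, which contain the pairs) was present in 4 of 10 chaperones and in 4 of 16 windows, against 0.490% of all windows. The stretches of 60 bases that hold the motif in 6 further chaperones are shown to compare these elements, in the same capitals.
HSPA8, chr11:123062327-123062386, minus strand: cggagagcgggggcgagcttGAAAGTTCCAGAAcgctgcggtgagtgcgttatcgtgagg
HSP90AA1, chr14:102087093-102087152, minus strand: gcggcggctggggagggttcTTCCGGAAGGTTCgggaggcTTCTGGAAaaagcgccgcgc
HSP90AB1, chr6:44247758-44247817, plus strand: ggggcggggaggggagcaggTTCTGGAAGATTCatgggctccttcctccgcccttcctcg
HSPD1, chr2:197500031-197500090, minus strand: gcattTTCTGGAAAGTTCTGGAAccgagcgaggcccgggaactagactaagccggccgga
DNAJB1, chr19:14518435-14518494, minus strand: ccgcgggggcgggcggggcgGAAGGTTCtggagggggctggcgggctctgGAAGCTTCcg
HSPB1, chr7:76302471-76302530, plus strand: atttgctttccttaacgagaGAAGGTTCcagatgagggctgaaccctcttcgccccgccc
HSPA8, HSP90AA1, HSP90AB1 and HSPD1 carried the run of 3 units, and HSPA1A, HSPA1B, DNAJB1 and HSPB1 only pairs. Neither motif was present in the windows of HSPH1 and BAG3, which says only that these letters are absent there. A match is not evidence that HSF1 was bound.

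HSPA1A had a log2(TPM+1) between 6.26 (R175H) and 7.07 (H179R) in the structural lines, with a median of 6.79. In the contact lines it was 5.96 in R273H, 5.75 in R248Q, 6.42 in R248W and 6.98 in R273C, and in the control lines 5.68 in WTKD, 5.45 in the library labelled WTOE and 5.07 in WT. Every mutant line was above every control line, although R248Q and WTKD lay only a short way apart. HSPA1B was between 5.55 (R175H) and 6.22 (Y220C) in the structural lines, with a median of 5.69. It was 6.08 in R273H, 5.47 in R248Q, 5.34 in R248W and 6.33 in R273C, against 5.29 in WTKD, 4.36 in the library labelled WTOE and 1.40 in WT. The mutant lines again lay above all 3 control lines, and the WT library stood far below the rest.

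HSPA1B averaged 5.79 ± 0.34 in mutant lines (SD, n = 10) and 3.68 ± 2.04 in control lines (SD, n = 3), a log2 difference of 2.11 (standard error 0.60, 95% interval 0.84 to 3.38, limma adjusted p = 0.526). Its unadjusted p of 0.0028 was the 79th smallest among 14884 genes. HSPA1A averaged 6.55 ± 0.45 in mutant lines (SD, n = 10) and 5.40 ± 0.31 in control lines (SD, n = 3), a difference of 1.15 (standard error 0.41, limma adjusted p = 0.823). The 2 genes were the chaperones whose mutant and control ranges did not overlap, out of 10, and 1.00% of all genes tested had ranges that did not overlap in either direction (0.222% with the mutant lines higher). The library labelled WT set much of the size at HSPA1B: without it the difference was 0.96 (limma adjusted p = 0.961), and without WTKD it was 2.91 (limma adjusted p = 0.147).

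The sum of HSPA1A and HSPA1B was between 121.5 TPM (R175H) and 187.7 TPM (H179R) in the structural lines, and 128.2 TPM in R273H, 96.3 TPM in R248Q, 124.2 TPM in R248W and 204.7 TPM in R273C. The control lines had 88.5 TPM in WTKD, 62.2 TPM in the library labelled WTOE and 34.3 TPM in WT. All 10 mutant lines were above all 3 control lines, with the narrowest gap between R248Q and WTKD. As 1 gene, the pair differed by 1.36 between mutant and control lines (standard error 0.41, limma adjusted p = 0.638). HSPA1B was 0.05 of HSPA1A in the WT library and between 0.41 and 1.09 of it in the other lines.

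**Figure D1:**
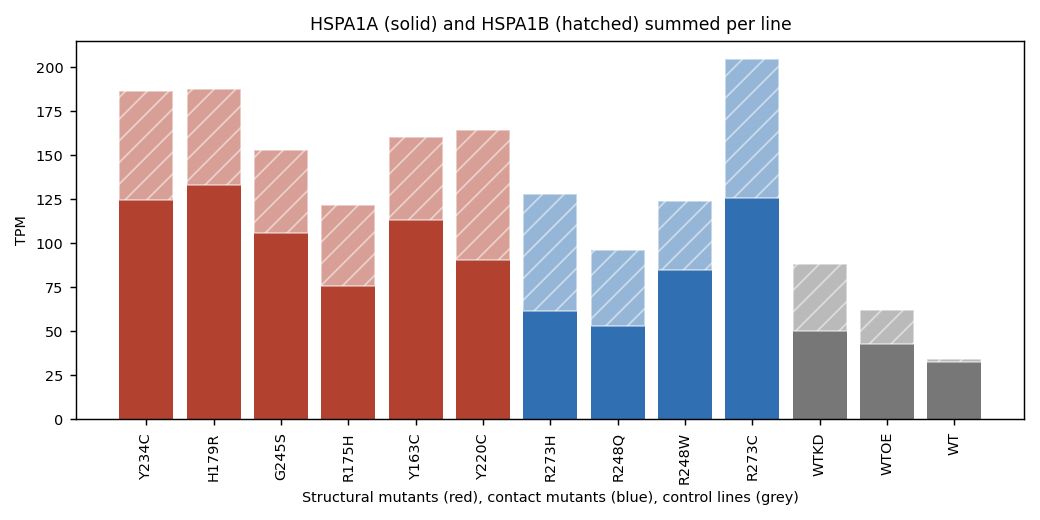
TPM of HSPA1A (solid) and HSPA1B (hatched) stacked for each of the 13 lines, with structural mutants in red, contact mutants in blue and control lines in grey, 1 library per line and no error bars. The stacks of the 10 mutant lines reach 96.3 to 204.7 TPM and those of the 3 control lines 34.3 to 88.5 TPM.

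Fitted by class against the same 3 control lines, structural lines gave an HSPA1B difference of 2.10 (standard error 0.72, limma adjusted p = 0.952) and contact lines one of 2.12 (standard error 0.90, limma adjusted p = 0.834). For HSPA1A these differences were 1.33 in structural lines and 0.88 in contact lines, and for HSPB1 they were 0.87 in structural lines and 1.53 in contact lines. The comparisons share their control lines. The direct difference between the classes was -0.02 for HSPA1B (95% interval -0.93 to 0.88), 0.45 for HSPA1A (95% interval -0.48 to 1.38) and 0.27 for their sum (95% interval -0.62 to 1.16), none past the test.

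HSPA8 (ENSG00000109971, chr11:123057489-123063230) encodes the constitutive HSP70, HSC70, and was the most abundant of the 10 by median TPM (3943 TPM). It ran from 10.17 (Y234C) to 13.01 (R175H) in the structural lines, with a median of 12.11, on the log2(TPM+1) scale. It was 10.70 in R273H, 10.89 in R248Q, 11.95 in R248W and 11.87 in R273C, against 12.14 in WTKD, 12.27 in the library labelled WTOE and 11.87 in WT. Y234C, R273H and R248Q were the low lines, 1 structural and 2 contact mutants. The classes differed by 0.58 (standard error 0.57, limma adjusted p = 0.987), by 0.36 without R175H and by 0.93 without Y234C. HSPA8 exceeded the summed HSPA1 pair 6.18- to 67.9-fold in structural lines, 13.01- to 31.8-fold in contact lines and 51.2- to 109.0-fold in control lines in TPM, and R175H was the mutant line within the control range. The HSPA1 sum lacks reads that fit both copies, so these ratios are uncertain and may be too high.

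HSPH1 (ENSG00000120694, chr13:31134973-31162388) encodes HSP110, a nucleotide exchange factor of HSP70. It lay between 6.91 (Y234C) and 9.50 (Y220C) in the structural lines, with a median of 8.40. The contact lines had 6.36 in R273H, 7.50 in R248Q, 7.92 in R248W and 7.78 in R273C, and the control lines 8.91 in WTKD, 9.12 in the library labelled WTOE and 8.25 in WT. As deposited, the structural range held every control line and every contact line but R273H, which was lower. Rescaled, HSPH1 was 7.91 in Y234C, 6.92 in R273H and 7.48 in R248Q, beside 7.42 to 9.30 in the other 7 mutant lines, so of these only R273H was below the rest. Fitted by class against control lines, the HSPH1 difference was -0.51 for structural lines (limma adjusted p = 0.961) and -1.37 for contact lines (limma adjusted p = 0.832). HSPH1 had the largest class difference of the 10 in size, 0.86 higher in structural than in contact lines (95% interval -0.35 to 2.07, limma adjusted p = 0.970). The difference was 0.52 without R273H and 1.13 without Y234C.

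DNAJB1 (ENSG00000132002, chr19:14514769-14560391) encodes HSP40, a J-domain protein that delivers clients to HSP70. It was lowest in Y234C (5.34) and highest in G245S (7.86), both structural lines, where its median was 6.56. It was 7.44 in R273H, 7.17 in R248Q, 6.67 in R248W and 7.16 in R273C, and 6.87 in WTKD, 7.16 in the library labelled WTOE and 6.67 in WT. As deposited, the contact and control lines lay inside the structural range. Rescaled, Y234C had 6.32, the structural lines lay between 6.09 (Y220C) and 7.71 (G245S), and R273H, at 8.00, was above them all. The class difference was -0.56 (standard error 0.51, limma adjusted p = 0.978). It was -0.82 without G245S, -0.31 without Y234C and -0.20 without R273H and Y234C.

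BAG3 (ENSG00000151929, chr10:119651380-119677819) encodes a co-chaperone that links HSP70 to selective autophagy. It was lowest in Y220C (6.47) and highest in Y234C (8.41), with a structural median of 7.08. It was 7.09 in R273H, 6.83 in R248Q, 7.32 in R248W and 7.88 in R273C, against 7.49 in WTKD, 7.55 in the library labelled WTOE and 7.77 in WT. Rescaled, BAG3 was 9.41 in Y234C and 6.27 to 7.66 in the other 12 lines. The class difference of BAG3 was -0.07 (95% interval -1.10 to 0.95), and it was -0.32 without Y234C and 0.13 without R273C.

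HSP90AA1 (ENSG00000080824, chr14:102080742-102139699) encodes the inducible cytosolic HSP90, which holds many kinases, steroid receptors and p53 itself in a near-folded state. It ran from 10.73 (Y234C) to 12.56 (Y220C) in the structural lines, with a median of 11.92. It was 11.25 in R273H, 10.55 in R248Q, 11.75 in R248W and 12.03 in R273C, against 12.52 in WTKD, 11.93 in the library labelled WTOE and 11.60 in WT. R248Q was the lowest of the 13 lines. HSP90AB1 (ENSG00000096384, chr6:44246166-44253888), the constitutive partner, was between 9.81 (Y234C) and 11.40 (Y163C) in the structural lines, with a median of 11.24. The contact lines had 9.87 in R273H, 10.30 in R248Q, 11.60 in R248W and 11.12 in R273C, and the control lines 11.55 in WTKD, 11.05 in the library labelled WTOE and 11.26 in WT. As deposited, both HSP90 genes were low in Y234C, R273H and R248Q. Rescaled, HSP90AA1 was 11.72 in Y234C, 11.81 in R273H and 10.52 in R248Q, beside 11.47 to 12.35 in the other 7 mutant lines, and only R248Q was below the rest. Rescaled HSP90AB1 was 10.81 in Y234C, 10.44 in R273H and 10.28 in R248Q, beside 10.58 to 11.32 in the other mutant lines, which left R273H and R248Q below the rest. The class difference was 0.43 for HSP90AA1 and 0.22 for HSP90AB1 (limma adjusted p at least 0.994 for both). That of HSP90AA1 was 0.15 without R248Q and 0.65 without Y234C, and that of HSP90AB1 was -0.06 without R273H and 0.52 without R248W. In TPM, HSP90AA1 was above HSP90AB1 in every line, by 1.11- to 2.59-fold.

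HSPD1 (ENSG00000144381, chr2:197486584-197516737) encodes the mitochondrial chaperonin HSP60. It was between 8.84 (Y234C) and 10.86 (Y163C) in the structural lines, with a median of 10.44. It was 8.51 in R273H, 9.13 in R248Q, 10.06 in R248W and 10.22 in R273C, against 10.73 in WTKD, 9.94 in the library labelled WTOE and 9.80 in WT. As deposited, the low lines were once more R273H, Y234C and R248Q. Rescaled, HSPD1 was 9.84 in Y234C, 9.07 in R273H and 9.10 in R248Q, beside 9.33 to 10.58 in the other 7 mutant lines, so Y234C was no longer low. Structural lines differed from contact lines by 0.64 (standard error 0.55, limma adjusted p = 0.978), by 0.31 without R273H and by 0.89 without Y234C.

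HSPB1 (ENSG00000106211, chr7:76302673-76304295) encodes HSP27, a small heat shock protein that holds unfolded proteins without ATP. It lay between 6.30 (Y163C) and 7.58 (Y234C) in the structural lines, with a median of 6.92. The contact lines had 8.33 in R273H, 8.03 in R248Q, 6.84 in R248W and 7.07 in R273C, and the control lines 5.48 in WTKD, 6.46 in the library labelled WTOE and 6.17 in WT. R273H, R248Q and Y234C, low in HSPA8, were the highest in HSPB1, and so they were after rescaling (8.90, 8.00 and 8.58). Mutant lines averaged 7.17 ± 0.62 (SD, n = 10) and control lines 6.04 ± 0.50 (SD, n = 3), a difference of 1.13 (standard error 0.47, limma adjusted p = 0.932). Of the mutant lines only Y163C overlapped the control range. The difference between structural and contact lines was -0.65 (95% interval -1.66 to 0.35, limma adjusted p = 0.975), and -0.40 without R273H.

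**Figure D2:**
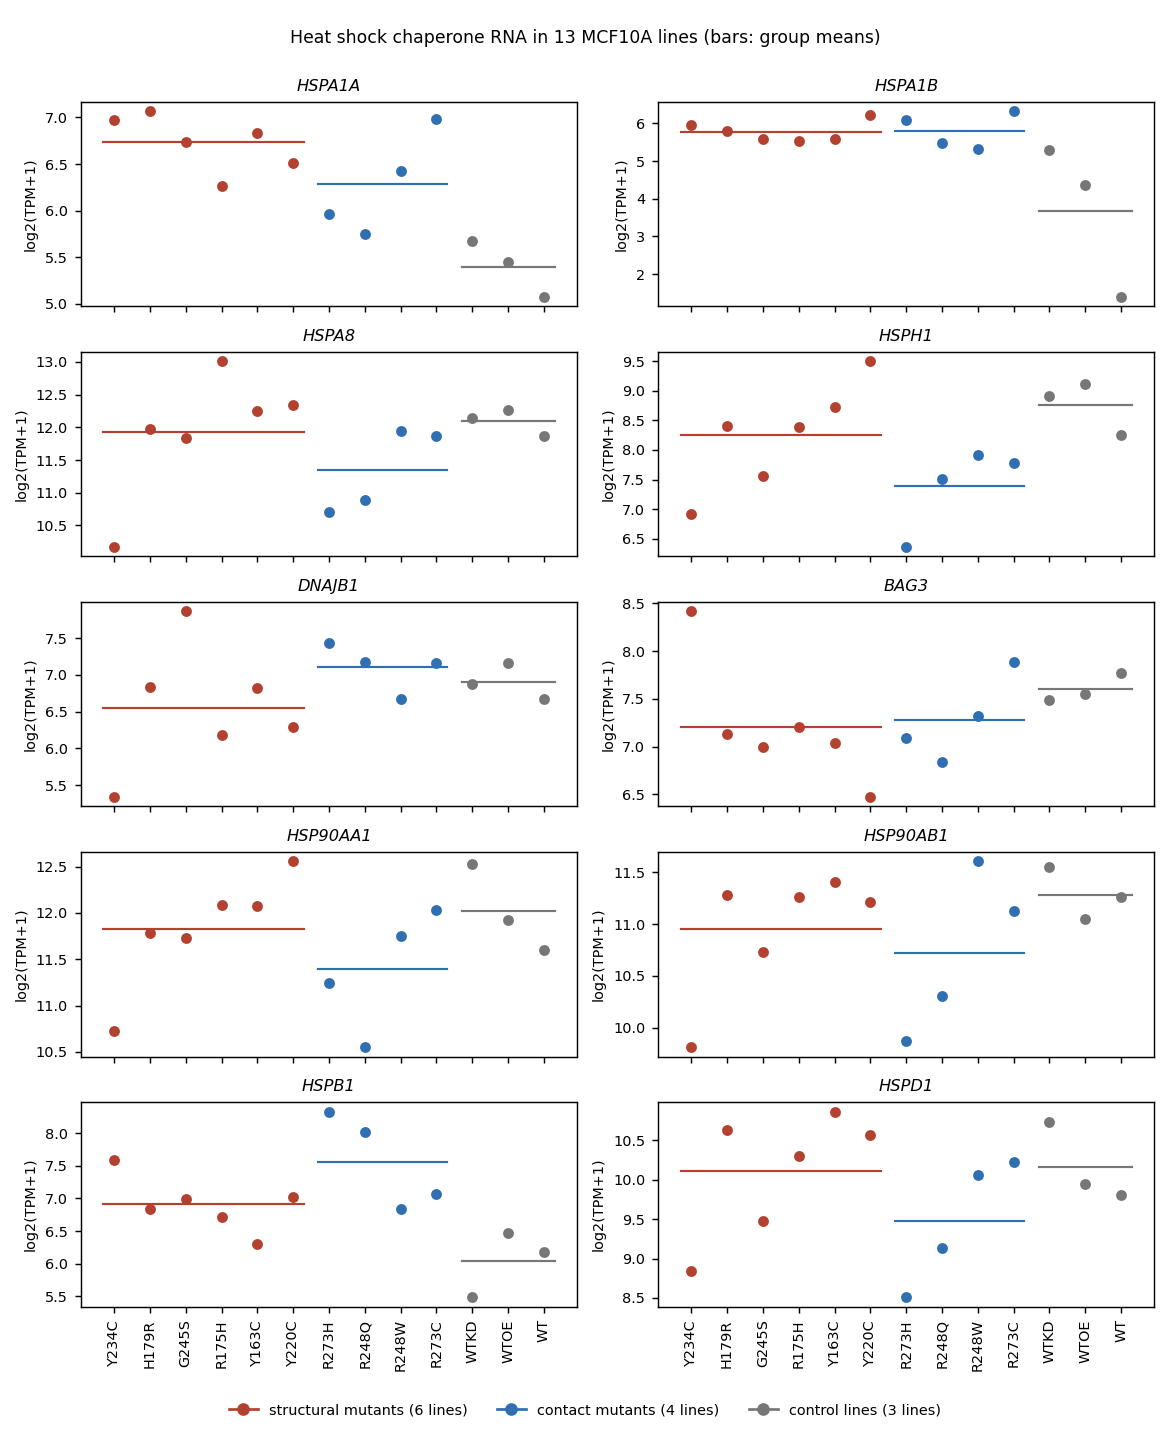
log2(TPM+1) of each chaperone (1 panel per gene, vertical axis) in the 13 lines (horizontal axis), with structural mutants in red, contact mutants in blue and control lines in grey, 1 point per library and a bar at each group mean. In HSPA1A and HSPA1B every mutant point is above every control point, and in HSPA8, HSP90AA1, HSP90AB1, HSPH1 and HSPD1 the Y234C, R273H and R248Q points are low on this scale, as deposited.

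Set side by side, 6 of 10 chaperones had a higher mean in structural than in contact lines, with a median log2 difference of 0.33, where the median over all genes tested was -0.01. The structural and contact ranges overlapped for all 10, and 1.03% of all genes had ranges that did not overlap. For mutant minus control lines 3 of 10 chaperones were positive, with a median of -0.33, beside -0.08 over all genes. The 7 negative differences ran from -0.86 (HSPH1) to -0.13 (DNAJB1), with HSPA8 at -0.39, HSP90AA1 at -0.36 and HSP90AB1 at -0.42. Rescaling by median-of-ratios moved the median of all genes in this comparison from -0.08 to 0.07. After it HSPA8 was at -0.19, HSP90AA1 at -0.16, HSP90AB1 at -0.22 and DNAJB1 at 0.07. Without R273H and Y234C the differences were -0.08 for HSPA8, -0.20 for HSP90AA1, -0.17 for HSP90AB1 and -0.54 for HSPH1, and without WTKD that of HSP90AA1 was -0.11.

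**Figure D3:**
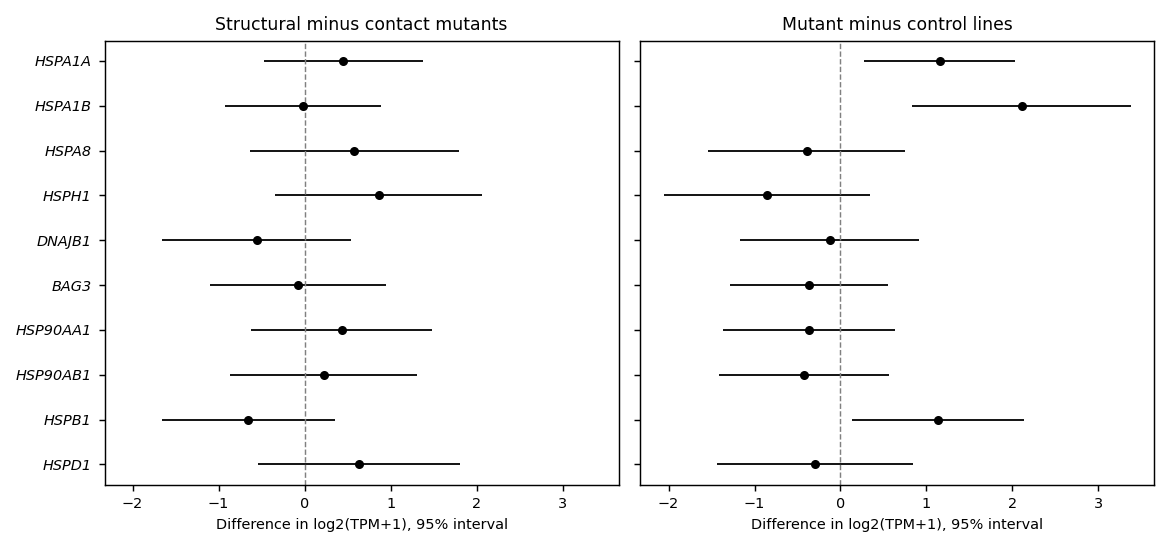
Difference in log2(TPM+1) of each chaperone for structural minus contact mutants (left, 6 and 4 lines) and for mutant minus control lines (right, 10 and 3 lines), with limma's 95% intervals as bars. All 10 intervals on the left cross 0, and on the right those of HSPA1A, HSPA1B and HSPB1 lie above 0.

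Over the 13 lines the chaperones fell into a block that varied together and others that did not. Pearson's r between any pair of HSPA8, HSP90AA1, HSP90AB1, HSPH1 and HSPD1 was between 0.77 and 0.91, and r of HSPB1 with each of these 5 was between -0.82 and -0.69. HSPA1A and HSPA1B had an r of 0.73 with each other, and between -0.24 and 0.17 with the block. These correlations describe 13 single libraries that share scaling within a library, and the block was low in the libraries that stood apart. After median-of-ratios rescaling r within the block was between 0.55 and 0.79, and that of HSPB1 with the block between -0.72 and -0.32. The rescaled HSPA8 level was 11.17 in Y234C, 11.27 in R273H and 10.86 in R248Q, beside 11.61 to 13.07 in the other 7 mutant lines. HSPA8 was the one gene of the block in which these 3 lines were all below the other mutant lines after rescaling. DNAJB1 changed most with the scaling, since its r with HSP90AB1 was 0.05 before and -0.75 after.

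**Figure D4:**
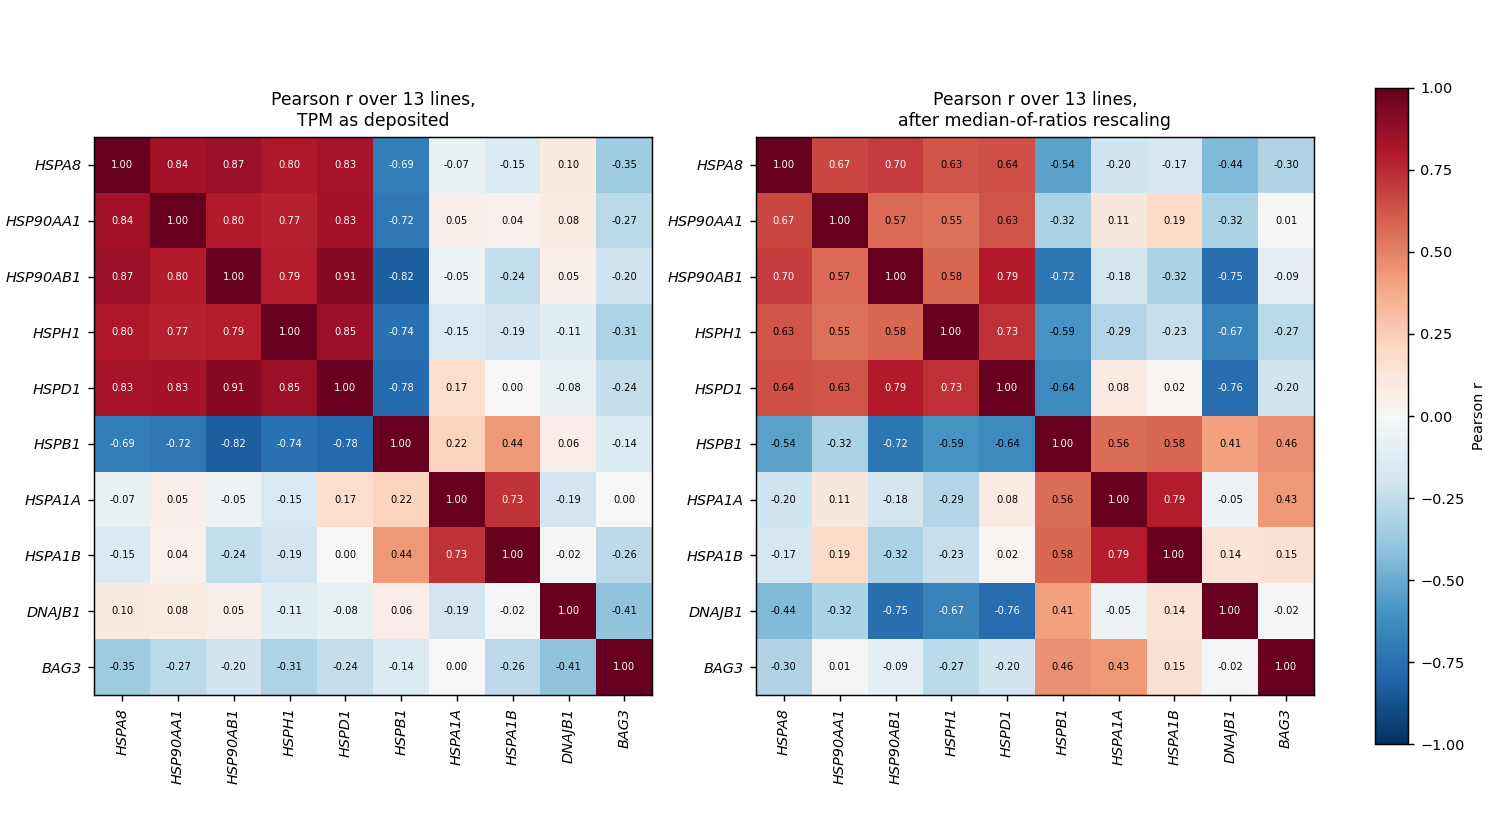
Pearson's r of log2(TPM+1) between each pair of the 10 chaperones over 13 lines, for TPM as deposited (left) and after median-of-ratios rescaling (right), coloured from -1 (blue) to 1 (red) with r printed in each cell. HSPA8, HSP90AA1, HSP90AB1, HSPH1 and HSPD1 form a red block at 0.77 to 0.91 on the left and 0.55 to 0.79 on the right, and HSPB1 is blue against them.

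Some epithelial markers also differed among the lines, and not in the same way in all lines low in this block. CDH1, the adherens junction cadherin, was 0.25 in R273H and 0.96 in R248Q and between 4.47 and 6.29 in the other mutant lines, and 5.59 to 6.41 in control lines, on the log2(TPM+1) scale. EPCAM was 3.51 in R273H and 2.53 in R248Q and 5.16 to 8.17 in the other mutant lines. Y234C, low in the block as deposited, had 6.29 for CDH1 and 7.98 for EPCAM. KRT18 was 5.89 in R273H, 7.76 in R248Q, 6.99 to 8.30 in the other mutant lines and 7.53 to 7.85 in control lines. Summed over KRT5, KRT14, KRT17, TP63, LAMB3 and ITGA6, basal markers were at 1803 to 4678 TPM in structural lines, 1084 to 1739 TPM in contact lines and 1914 to 3256 TPM in control lines. For structural minus contact lines 6 of 6 were positive, against 49.6% of all genes. At an unadjusted p under 0.05 (limma) the count was 3 of 6, against 4.93% of all genes. The smallest adjusted p among them was 0.764 (limma). Their part in the chaperone values was not tested.

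The genes most like 3 of the chaperones over the 13 lines, among 8163 genes with a mean log2(TPM+1) of at least 3, were read as a description. HSP90AA1 was closest to POLR3G (r = 0.96), ERMP1 (r = 0.95) and RPF2 (r = 0.95). HSPB1 was closest to SLC25A1 (r = 0.92), RAB11FIP5 (r = 0.90) and ABCA2 (r = 0.88). HSPA1B was closest to LGALS3 (r = 0.94), the processed pseudogene RPL13AP5 (r = 0.91) and TRIM16 (r = 0.86). Without the WT library r with HSPA1B was 0.58 for LGALS3, 0.74 for RPL13AP5 and 0.61 for TRIM16, so much of that likeness came from 1 line.

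HSF1, the main heat shock factor, had a log2(TPM+1) between 4.23 (R175H) and 6.03 (G245S) in structural lines. It was 4.90 in R273H, 7.62 in R248Q, 5.22 in R248W and 6.26 in R273C, against 5.48 in WTKD, 6.15 in the library labelled WTOE and 6.24 in WT. R248Q had the most HSF1 RNA of the 13 lines and the least HSP90AA1. The class difference was -0.82 for HSF1 (standard error 0.60, limma adjusted p = 0.975) and -0.24 for HSF2 (standard error 0.80, limma adjusted p = 0.996), the related factor, which was at 0.55 in Y234C and between 1.79 and 5.04 in the other lines. RNA levels do not measure HSF1 activity, which depends on trimerisation and phosphorylation.

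The wider chaperone network was read from 9 lists of 90 genes, 81 of them tested. None passed the test in either comparison (limma), where 0% and 0.0202% of all genes were called. At an unadjusted p under 0.05 the count was 1 of 81 (1.23%) for each comparison. That was below the share of all genes, 4.93% for structural minus contact mutants and 4.83% for mutant minus control lines. The 1 gene was HSPE1 for structural minus contact mutants and DNAJC2 for mutant minus control lines. HSPE1 encodes HSP10, the lid of the HSP60 chaperonin, and starts 16 bp from HSPD1 on the opposite strand. Its log2(TPM+1) was between 8.22 (G245S) and 11.10 (Y163C) in structural lines, with a median of 10.61, and 7.44 in R273H, 7.51 in R248Q, 8.14 in R248W and 9.53 in R273C. Control lines had 10.25 in WTKD, 9.19 in the library labelled WTOE and 8.85 in WT. The class difference of HSPE1 was 1.81 (standard error 0.68, limma adjusted p = 0.960), and Y234C (8.53) and G245S lay within the contact range.

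Beyond HSPE1, the largest positive class differences of the wider lists were GRPEL2 (1.12), a nucleotide exchange factor of mitochondrial HSP70, and HSPB11 (1.11). The largest negative ones were DNAJB11 (-1.23), a J-domain protein of the endoplasmic reticulum, STUB1 (-1.08), the ubiquitin ligase CHIP that marks chaperone clients, and HSPA2 (-1.06), an HSP70 of the germ line. For mutant minus control lines they were HSPB8 (1.61), a small heat shock protein that works with BAG3, DNAJB4 (1.36) and HSPA2 (1.29), and in the other direction SDF2L1 (-1.25), DNAJC2 (-1.11) and CRYAB (-0.94). All of these had ranges that overlapped between groups, and limma adjusted p between 0.932 and 0.977. In several, 1 library stood apart from its group on the log2(TPM+1) scale. DNAJB11 was 8.57 in R273H and 4.84 to 6.21 in the other contact lines, and HSPB11 3.10 and 5.85 to 7.06. STUB1 was 0 in R175H and 2.27 to 3.29 in the other structural lines. Among mutant lines HSPA2 was 6.02 in R248Q and at most 3.64 elsewhere, and SDF2L1 0.45 in R273H and at least 4.72 elsewhere. CRYAB was 4.74 in WT and 0 in WTKD and WTOE. The 8 subunits of the CCT chaperonin, which folds actin and tubulin, had 4 positive and 4 negative class differences (median 0.06). For mutant minus control lines all 8 were negative, from -0.60 to -0.09 (median -0.42), where 45.0% of all genes were positive. None of the 8 was past the test. HSP90 co-chaperones had 8 of 12 positive class differences (median 0.24), and HSP70 co-chaperones 4 of 9 (median -0.12).

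Chromatin bound by V5-tagged p53 had been mapped by ChIP-seq in 5 of the lines, with 1 peak list each, and was read at the chaperone promoters (2500 bp upstream to 100 bp downstream of any annotated start). In the Y220C, Y234C, R273C and WTOE lists 0 of 10 chaperones had a promoter peak, against 0.428% of 57717 genes in the Y220C list, 0.820% in the Y234C list, 0.0606% in the R273C list and 3.71% in the WTOE list. In the R273H list, the longest with 25309 peaks, 1 of 10 had one, HSPD1, against 1.98% of genes. That peak (chr2:197501418-197501781, GRCh38, 4.59-fold over input, -log10 q of 3.08) had its summit 1321 bp upstream of an HSPD1 start, inside HSPE1, where 134 of its 364 bases were exonic. A second R273H peak (chr6:31816260-31816594, 4.12-fold over input, -log10 q of 2.41) lay wholly in the exon of HSPA1A with its summit 949 bp after the start, and 335 of its 335 bases fell in 75-base windows that HSPA1A shares with HSPA1B. In the other 4 lists the nearest summit to any chaperone start was 18.1 kb away, from HSPD1 in the WTOE list.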

How the data were processed

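The authors aligned RNA-seq reads of 13 MCF10A lines, 1 library per line, to Ensembl's GRCh38 build and counted them per gene with STAR, left out mitochondrial RNA, and deposited TPM plus 1 on a log2 scale, with TPM summing to 1000000 in every column. Duplicate reads, by the paper's figures the large majority in every library, were marked with Picard and kept in that step. Which reads entered the deposited values is not stated further. The paper describes mitochondrial RNA as a large share of the reads that varied between samples. For ChIP-seq the authors aligned with Bowtie2 2.1.0, filtered with SAMtools 1.7 and called peaks per line with MACS2 2.1.2.20181017 against input at a q of 0.05. The deposited fold enrichment ratio, -log10 p and q values and score of each peak come from MACS2.

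limma 3.58.1 in R 4.3.3 was fitted to the 14884 genes that reached 1 on the log2(TPM+1) scale in 3 or more lines, two-sided, for structural minus contact mutants (10 lines) and mutant minus control lines (13 lines), with Benjamini-Hochberg adjustment over all genes and a threshold of 0.05, and was tested on simulated data. Python 3.11.15, numpy 2.4.6, pandas 2.3.3 and matplotlib 3.10.9 did the rest. A fold change is on the log2(TPM+1) scale, which understates the change of low genes. Lines are separate derivatives, so p-values measure the spread between lines. The 10 chaperones and the other gene lists were chosen with earlier results of these data known. Named genes were all 10 chaperones, the 3 largest positive and negative differences of the wider chaperone lists in each comparison, and the 3 genes most correlated with HSPA1B, HSPB1 and HSP90AA1. The alternatives were other pseudocounts (0.1 and 5), filters, scalings, fits and sets of lines, the summed HSPA1 pair, and other peak thresholds and windows. One symbol, HSPA14, stood on 2 identifiers, and the identifier that the reference names otherwise was left out. GENCODE v44 gave start sites for 57717 genes, and promoter sequences were those of RefSeq on GRCh38.p14, with all 10 chaperones matched. Start sites of the deposited build and of this annotation share the GRCh38 coordinates.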

Additional observations from a re-analysis of the deposited data

How the results depend on the processing

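No chaperone had an adjusted p under 0.05 under any of the alternatives. Of 498 chaperone differences recomputed, 481 kept their direction and 17 did not, all at HSPA1B, HSP90AB1 and BAG3 for structural minus contact lines and at HSPD1 and DNAJB1 for mutant minus control lines, and the cause was not tested. For structural minus contact lines HSPA1B turned to 0.0041 after quantile normalization, 0.0003 after median-of-ratios rescaling, 0.0099 when rescaled without the 50 highest genes and 0.0345 without R273H and Y234C. Leaving out lines in turn, HSPA1B ran from -0.18 to 0.15, HSP90AB1 from -0.0597 to 0.52 and BAG3 from -0.32 to 0.13. For mutant minus control lines HSPD1 was 0.0012 without R273H and Y234C, and DNAJB1 was 0.073 after median-of-ratios rescaling and 0.21 in contact lines alone, and from -0.25 to 0.0345 with lines left out in turn, with the positive values without Y234C and without the library labelled WTOE. HSPA1B ran from 0.96 (without WT) to 2.91 (without WTKD), with an adjusted p between 0.147 and 0.961 over all alternatives (limma).

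Genes called for structural minus contact lines, 0 as fitted, numbered 5 with a pseudocount of 0.1, 1 without a filter, 2 when rescaled without the 50 highest genes, 2 with array weights, 1 without R273H and Y234C, and 0 to 1 with lines left out in turn. For mutant minus control lines, 3 as fitted, they numbered 6 and 1 with pseudocounts of 0.1 and 5, 5 without a filter and 0 with the stricter one, 1 after median-of-ratios rescaling, 6 when rescaled without the 50 highest genes, 8 with array weights, 5 with genes detected as a covariate, 8 without R273H and Y234C, and 0 to 11 with lines left out in turn. Fits by class, added after seeing the data, called 1 gene for structural and 5 for contact lines. A window of 5000 bp either side of a start gave 2 chaperones with a peak (HSPD1 and HSPA1A, both in the R273H list) in place of 1. No paired analysis was possible because the lines carry no shared replicate numbers. With 1 library per line and depth unknown, variation within a line was not measured.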
